A study of Mus musculus with 8 samples.

Results

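The ATP-binding cassette (ABC) genes are a family of membrane pumps and a few soluble relatives. They were taken as every gene symbol in the files that starts with Abc, a subfamily letter from a to g and a number, with sense reads summed over the 8 libraries of at least 80. Of 50 such symbols, 42 met the minimum, out of 25229 genes in the files. Subfamily a had 11 members, b 9, c 9, d 4, e 1, f 3 and g 5. The 8 symbols left out were Abcb5 and Abcc8 with 0 reads, Abca15 with 1, Abca12 and Abca16 with 2 each, Abcg4 with 5, Abca13 with 16 and Abca17 with 60. The member nearest the minimum was Abca4, with 151 reads over all libraries.

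RNA was sequenced from liver cells of 8 C57BL/6 mice, all of them Ifih1-/- (without the RNA sensor MDA5) and all Alb-Cre+, so that Cre is driven by the albumin promoter in hepatocytes. The mice differed in Adar1, the gene of an RNA-editing enzyme: 3 were Adar1 wt/wt, 2 were Adar1 wt/flox and 3 were Adar1 flox/flox. The design text counts 2 flox/flox mice, and all 3 labelled libraries were used. The ages were 11, 9 and 7 weeks for replicates 1, 2 and 3 of each group, wt/flox having replicates 1 and 2 only. The stated aim was to see what Adar1 depletion does when Ifih1 is null. Per the labels' protocols, collagenase was perfused through each liver and a Percoll gradient kept the live cells.

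Several facts of the whole series bear on every value below. Sense reads in genes ranged from 75875711 to 132303735 per library. The wt/wt libraries carry a batch mark of their own in the names of the deposited tables, and the wt/flox and flox/flox libraries share another, so batch and genotype cannot be told apart in either comparison with wt/wt. The share of reads aligned to several places was 8.97% to 10.9% for wt/wt, against 3.92% to 4.98% elsewhere. Transcripts of Xist and of 4 Y-linked genes went against the labelled sex in 2 flox/flox libraries, replicates 1 and 2. By these transcripts wt/wt held 2 males and 1 female (replicate 3), wt/flox 2 males, and flox/flox 1 male (replicate 1) and 2 females. Reads of Adar over the whole gene were 28.1, 30.0 and 53.6 CPM (reads scaled to a common library size) in the wt/wt mice, 21.99 and 31.8 in the wt/flox mice and 49.4, 35.9 and 42.1 in the flox/flox mice, and did not pass the test between any pair of groups. The labels do not say which exons are floxed, and reads over the whole gene are a weak check of the deletion.

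ABC transporters use the hydrolysis of ATP to move a substrate across a membrane. In hepatocytes, several of them sit in the canalicular membrane and secrete bile salts, phospholipid, sterols and drug conjugates into bile, while others work at the blood-facing membrane, in mitochondria, lysosomes or peroxisomes. The members of subfamilies e and f have the ATP-binding parts but no membrane-spanning part, and act in ribosome recycling and translation.

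Stretches of sequence ahead of canalicular genes are shown for these reasons. Abcb11 had the highest mean wt/wt level per kilobase of exon, though its libraries overlapped those of Abcd3. The products of Abcg5 and Abcg8 form 1 pump, and all 3 genes rose in both comparisons with wt/wt. The stretches come from RefSeq promoters and genome positions on GRCm38.p6, where 32 of the 42 members had an entry. Those without one included Abca6, Abcb8, Abcc1, Abcc3, Abcc6, Abcd2, Abcd4 and Abcg1. The first is the 250 bases before the start of Abcb11, chr2:69342617-69342866 on the minus strand, with capitals for a match to an inverted repeat (AGGNCA, then 1 base of any kind, then TGNCCT), the kind of site that the bile acid receptor FXR is known to bind. The second is the 109 bases between RefSeq starts of the divergent genes Abcg5 and Abcg8, chr17:84683012-84683120 on the plus strand. Its capitals mark matches to the GATA word AGATAA, here on the other strand. The Abcg8 start used is 84683121, while the span of Abcg8 in GENCODE M21 begins at 84676302, inside that of Abcg5.
Abcb11: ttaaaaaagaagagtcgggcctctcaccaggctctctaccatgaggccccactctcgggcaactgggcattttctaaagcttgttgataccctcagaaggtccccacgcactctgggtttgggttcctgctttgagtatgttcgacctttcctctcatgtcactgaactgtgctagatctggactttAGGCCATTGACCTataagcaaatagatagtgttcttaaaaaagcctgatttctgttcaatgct
Abcg5 to Abcg8: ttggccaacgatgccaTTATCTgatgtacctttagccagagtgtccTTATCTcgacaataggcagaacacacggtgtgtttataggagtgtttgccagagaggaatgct

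The inverted repeat, searched on both strands, was found in 0.0883% of all 32851 RefSeq promoters (250 bases before to 50 after the start), and Abcb11 was the only matched member with it. The GATA word was in 11.2% of all promoters and in those of Abca14, Abcf2, Abcg5 and Abcg8. The core of the antioxidant response element, TGACNNNGC, was in 12.4% of all promoters and in those of Abca8b, Abcb1a, Abcc10, Abcc2 and Abcc4. A direct repeat of AGGNCA spaced by 4 bases was in 0.253% of all promoters and in 0 of the matched members. These letters are a description and no site was tested.

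Levels of different genes were set side by side per kilobase of exon, as RPKM (CPM divided by exon length in kilobases). In wt/wt, the highest mean was that of Abcb11, the bile salt export pump, at 88.6 RPKM, followed by Abcd3, a peroxisomal pump for branched-chain acyl chains and bile acid intermediates, at 82.5. The 3 wt/wt libraries of these genes overlapped, at 101, 70.1 and 94.9 RPKM for Abcb11 and 92.1, 90.6 and 64.7 for Abcd3, so their order is within the spread. Next came Abca6 at 56.7, Abcc2 at 52.3, Abcc3 at 39.6, Abca1 at 35.1, Abcc6 at 27.7 and Abcb4 at 24.9 RPKM. In all, 28 members had a wt/wt mean of at least 1 RPKM and 14 were below it, down to Abca4, a retinal gene, at 0.00995 RPKM. Summed over the 42 members, the level was 3623 to 4133 CPM in wt/wt, 7483 to 8208 in wt/flox and 7569 to 8666 in flox/flox, so no library of the other groups reached down into the wt/wt range.

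Between flox/flox and wt/wt, 24 of the 42 members rose and 2 fell (edgeR quasi-likelihood test, Benjamini-Hochberg adjusted over 14728 genes, threshold 0.05). Over all genes, 15.1% were called higher and 14.7% lower, 29.9% in all. The members' median log2 fold change was 0.83, against 0.02 over all genes tested. In 21 members every flox/flox library was above every wt/wt library and in 2 every one was below, where 23% and 22% of all genes did so. All 24 that rose were among the 38 members of the membrane subfamilies a, b, c, d and g, with a median of 0.90, and both that fell were among the 4 of subfamilies e and f, with a median of -0.54. By subfamily, 8 of 11 rose in a, 6 of 9 in b, 6 of 9 in c, 2 of 4 in d and 2 of 5 in g. With wt/wt replicate 2 left out, 13 members were higher and 1 lower (15% of all genes called), and with wt/wt replicate 1 left out 16 and 1 (19.1% of all genes). Without the 2 flox/flox libraries of contradicted sex, which leaves 1 flox/flox library assumed to vary like the others, 16 members were higher and 3 lower, against 8.3% and 10.9% of all genes. With library size alone in place of size factors, the median of all genes moved to -0.31, the calls over all genes to 744 higher (5.05%) and 4097 lower (27.8%) from 2231 and 2169, and those of the members to 17 higher and 4 lower.

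Between wt/flox and wt/wt, 16 members rose and 1 fell, against 6.58% of all genes higher and 5.89% lower, 12.5% in all, by the same edgeR test. The members' median log2 fold change was 0.66, against -0.06 over all genes. In 25 members both wt/flox libraries were above every wt/wt library and in 4 below, where 25.8% and 29.3% of all genes did so. The number of members called depended on which libraries were in the fit. With either wt/flox library left out, the wt/flox group held only 1 library, which was assumed to vary like the other groups. The members' median log2 fold change was then 0.77 without wt/flox replicate 1 and 0.65 without wt/flox replicate 2. With wt/wt replicate 2 left out, 1 member (Abca1) was called (0.259% of all genes). The number was 8 without wt/wt replicate 1 (2.68%) and 11 without wt/wt replicate 3 (6.87%). With library size alone the median of all genes was -0.42, the calls over all genes went from 969 higher and 868 lower to 281 (1.91%) and 3217 (21.8%), and 9 members rose and 1 fell. With upper-quartile factors the calls over all genes were 835 higher and 1305 lower. Both comparisons share the 3 wt/wt libraries, so they are not separate evidence.

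Of the 8 genes for export into the bile canaliculus, 6 rose in flox/flox and 5 in wt/flox, and 0 fell. Summed over the 8, the level was 1062 to 1489 CPM in wt/wt, 2827 to 3202 in wt/flox and 3002 to 3431 in flox/flox. These summed levels did not overlap between wt/wt and the other groups.

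Abcc2 (chromosome 19, 43782192 to 43840740, plus strand, GRCm38), which exports conjugated bilirubin and glutathione conjugates, was at 534, 376 and 429.7 CPM for wt/wt, 1256 and 1178 for wt/flox and 1382, 1129.8 and 1352 for flox/flox. Every library of both other groups was above every wt/wt library. The change was 2.89-fold in flox/flox (log2 1.53, SE 0.17, edgeR adjusted p = 0.00168) and 2.73-fold in wt/flox (adjusted p = 0.0101). Abcb11 (chromosome 2, 69238282 to 69342616, minus strand) was at 519, 361 and 489 CPM in wt/wt libraries, 1066 and 947 in wt/flox libraries and 695, 1487 and 993 in flox/flox libraries. The groups did not overlap with wt/wt, and the flox/flox libraries were the most spread. It rose 2.32-fold in flox/flox (log2 1.21, SE 0.28, edgeR adjusted p = 0.0157) and 2.21-fold in wt/flox (adjusted p = 0.0481). The flox/flox call was lost without wt/wt replicate 2 (edgeR adjusted p = 0.0645) and with replicate and sex by transcripts as terms (0.0641). The wt/flox call held in 9 of 20 alternatives. It was lost without wt/wt replicate 1, 2 or 3 (edgeR adjusted p = 0.0913, 0.137 and 0.0829).

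Abcb4, which moves phosphatidylcholine into bile, lies on chromosome 5 at 8893717 to 8959231, plus strand. It was at 258, 175 and 268 CPM in the wt/wt mice, 429 and 390.1 in the wt/flox mice and 575, 502 and 488 in the flox/flox mice. The 3 groups did not overlap and stood in that order, though the step from wt/flox to flox/flox did not pass the test (edgeR adjusted p = 0.578). Abcb4 rose 2.23-fold in flox/flox (log2 1.16, SE 0.18, adjusted p = 0.00418) and 1.75-fold in wt/flox (adjusted p = 0.0381).

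Abcg5 and Abcg8 encode the 2 subunits of the pump that puts cholesterol and plant sterols into bile, and are transcribed away from each other on chromosome 17. Abcg5 (84658234 to 84683011, minus strand) was at 43.3, 28.6 and 40.7 CPM for wt/wt, 128 and 82.1 for wt/flox and 102, 121 and 130.0 for flox/flox. Abcg8 (84676302 to 84700333, plus strand) was at 48.8, 37.1 and 36.5 CPM in wt/wt libraries, 182 and 86.6 in wt/flox libraries and 119.8, 106 and 110.3 in flox/flox libraries. Neither gene's wt/wt libraries overlapped with the others, and wt/flox replicate 1 was the higher wt/flox library for both genes. Abcg5 rose 3.14-fold in flox/flox (log2 1.65, SE 0.22, edgeR adjusted p = 0.0026) and 2.80-fold in wt/flox (adjusted p = 0.0144). Abcg8 rose 2.74-fold in flox/flox (log2 1.46, SE 0.26, edgeR adjusted p = 0.00617) and 3.29-fold in wt/flox (adjusted p = 0.0153). The wt/flox calls of both genes were lost without wt/wt replicate 2 and with replicate and sex by transcripts as terms. For Abcg8 the edgeR adjusted p was then 0.0683 and 0.0657. Its wt/flox log2 fold change was 1.09 without wt/flox replicate 1 and 2.16 without wt/flox replicate 2, each time with 1 wt/flox library left. With flox/flox replicate 3 as the only library of its group, Abcg8 had a log2 fold change of 1.43 against wt/wt.

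Abcb1a and Abcb1b encode P-glycoproteins, broad drug pumps, and sit beside Abcb4 on chromosome 5, with starts at 8660077 and 8798147 on the plus strand. Abcb1a was at 2.02, 1.65 and 6.53 CPM in the wt/wt mice, 3.26 and 4.06 in the wt/flox mice and 4.82, 27.95 and 33.3 in the flox/flox mice. It was high in flox/flox replicates 2 and 3 alone, and replicate 1 lay inside the wt/wt range. The fitted change in flox/flox was 6.48-fold (log2 2.70, SE 0.77, edgeR adjusted p = 0.033), and that in wt/flox was a log2 of 0.11 (adjusted p = 0.939). The flox/flox call was lost without any of wt/wt replicates 1 and 2 and flox/flox replicates 2 and 3 (adjusted p = 0.0993, 0.107, 0.0794 and 0.086). Abcb1b was at 0.283 to 1.23 CPM for wt/wt, 0.842 and 1.96 for wt/flox and 0.179 to 1.03 for flox/flox, and passed no test. They are paralogues, reads with several alignments were tallied apart, and how many of those belong to either gene was not measured.

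Abcg2, a pump for xenobiotics and urate (chromosome 6, 58584523 to 58695676, plus strand), was at 83.4, 81.3 and 33.2 CPM for wt/wt, 137 and 137 for wt/flox and 121, 58.1 and 51.0 for flox/flox. The 3 lowest libraries were those with Xist transcripts, and the flox/flox and wt/wt groups overlapped. Its log2 fold change was 0.22 in flox/flox (edgeR adjusted p = 0.715) and 1.06 in wt/flox (adjusted p = 0.159). With the sex read from transcripts as a term, it was 0.64 (adjusted p = 0.00742) and 0.76 (adjusted p = 0.0172), so that both passed.

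**Figure D1:**
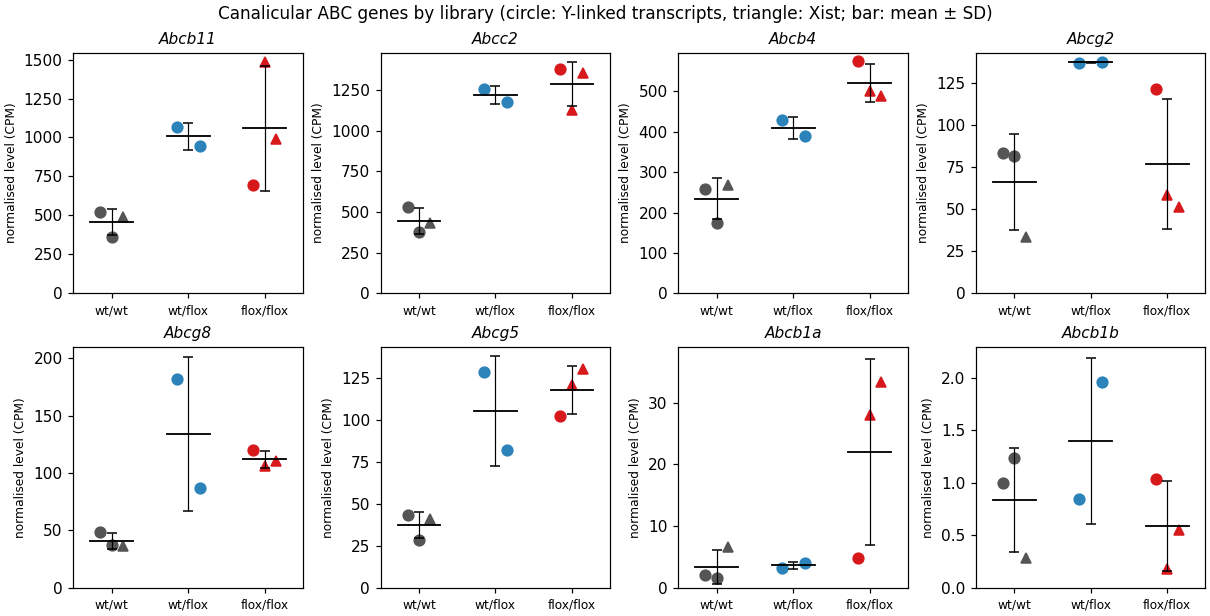
Level in CPM (y axes, from 0) of the 8 canalicular ABC genes in each library, by genotype; bars are mean ± SD, circles are libraries with Y-linked transcripts and triangles those with Xist. For Abcb11, Abcc2, Abcb4, Abcg5 and Abcg8 every wt/wt library lies below every other library, while Abcb1a is high in 2 flox/flox libraries only.

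Of the 7 genes of subfamily c for efflux across other membranes, 5 rose in flox/flox and 3 in wt/flox. Abcc3, which exports glucuronides across the basolateral membrane, lies on chromosome 11 at 94343295 to 94392997, minus strand. It was at 198, 200.3 and 278 CPM in wt/wt libraries, 491 and 420.4 in wt/flox libraries and 699, 495 and 513 in flox/flox libraries. The groups did not overlap, and the rise was 2.52-fold in flox/flox (edgeR adjusted p = 0.00362) and 2.02-fold in wt/flox (adjusted p = 0.0273). Abcc6, whose loss leads to ectopic calcification, was at 143 to 173 CPM for wt/wt, 298 and 326 for wt/flox and 283 to 399 for flox/flox, a rise of 2.27-fold and 1.97-fold. Abcc10 (chromosome 17, 46303221 to 46328352, minus strand), a drug pump, was at 9.95, 6.59 and 9.42 CPM in the wt/wt mice, 13.3 and 18.6 in the wt/flox mice and 18.5, 22.4 and 25.01 in the flox/flox mice. Its wt/wt libraries were all below the others, and it rose 2.54-fold in flox/flox (edgeR adjusted p = 0.00407) and 1.84-fold in wt/flox (adjusted p = 0.0442).

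Abcc12 (chromosome 8, 86482260 to 86580686, minus strand) had the largest fitted change of any member but few reads: 20, 21 and 23 for wt/wt, 10 and 27 for wt/flox and 358, 23 and 212 for flox/flox. In CPM these were 0.203, 0.178 and 0.210, then 0.117 and 0.383, then 3.97, 0.206 and 1.61. Replicates 1 and 3 of flox/flox were high and replicate 2 lay inside the wt/wt range. The fitted change was 9.74-fold (log2 3.28, SE 0.95, edgeR adjusted p = 0.035). The call was lost without any 1 of wt/wt replicates 1, 2 and 3 and flox/flox replicates 1 and 3 (adjusted p = 0.0943, 0.113, 0.0761, 0.086 and 0.0611).

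Abcc5, which exports cyclic nucleotides, also rose in flox/flox (2.30-fold, edgeR adjusted p = 0.0393), from 1.59 to 3.40 CPM in wt/wt to 3.25 to 6.40, with overlap. The call was lost without wt/wt replicate 1 or 2 or flox/flox replicate 1 or 3 (adjusted p = 0.114, 0.125, 0.0865 and 0.104, edgeR). Abcc1, for glutathione conjugates, and Abcc4, for bile salts and cyclic nucleotides, passed no test. Both were highest in replicate 3 of wt/wt and of flox/flox, with 1.77 and 1.09 CPM for Abcc1 and 3.68 and 4.39 for Abcc4. Those libraries also had the highest summed level of 12 Kupffer cell markers in their groups, at 269 CPM against 62.8 and 63.5 in wt/wt and 123 against 35.0 and 53.3 in flox/flox, and the part of other cells in these levels was not tested. Abcc9, a sulfonylurea receptor that serves as a subunit of potassium channels, was at 1.42 to 6.74 CPM over all libraries and passed no test.

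Of the 4 members listed under efflux of cholesterol and phospholipid, 2 rose in both comparisons. The listing is no evidence of that function for Abcg3, which had 18 to 225 reads per library. Abca1 (chromosome 4, 53030787 to 53159895, minus strand), which loads cellular cholesterol and phospholipid onto apolipoprotein A-I, was at 365, 379 and 348 CPM in wt/wt libraries, 992 and 1011 in wt/flox libraries and 786, 814 and 629.7 in flox/flox libraries. The 3 groups did not overlap and wt/flox was the highest. Abca1 rose 2.75-fold in wt/flox (log2 1.46, SE 0.15, edgeR adjusted p = 0.00833) and 2.04-fold in flox/flox (log2 1.03, SE 0.14, adjusted p = 0.0026). The difference of flox/flox from wt/flox was a log2 of -0.43 (SE 0.15, adjusted p = 0.558), so it did not pass. Abca7, a phospholipid pump, rose 1.46-fold in flox/flox and 1.71-fold in wt/flox, from 6.65 to 8.13 CPM in wt/wt. The flox/flox call of Abca7 was lost when wt/wt replicate 2, wt/wt replicate 3 or flox/flox replicate 2 was left out (edgeR adjusted p = 0.0877, 0.0606 and 0.0732). Abcg1, which passes cholesterol to HDL, and Abcg3 passed no test and were, like Abcc1 and Abcc4, highest in replicate 3 of wt/wt and of flox/flox (5.87 and 7.12 CPM for Abcg1).

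Of the other 9 members of subfamily a, 6 rose in flox/flox and 5 in wt/flox. A run of 5 of them are neighbours on the minus strand of chromosome 11, from 109932190 to 110337716, in the order Abca8b, Abca8a, Abca9, Abca6 and Abca5. Abca6 was at 366, 262 and 290.2 CPM in the wt/wt mice, 752 and 678 in the wt/flox mice and 682, 814 and 814 in the flox/flox mice. Abca5 was at 11.2, 11.5 and 9.48 CPM for wt/wt, 24.2 and 21.5 for wt/flox and 24.2, 26.6 and 24.1 for flox/flox. Both were higher in every library of the other groups than in any of wt/wt.

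Abca6 rose 2.52-fold in flox/flox (edgeR adjusted p = 0.00217) and 2.34-fold in wt/flox (adjusted p = 0.0119), and Abca5 rose 2.33-fold (adjusted p = 0.00125) and 2.13-fold (adjusted p = 0.0101), although their wt/wt levels were far apart, at 56.7 and 0.937 RPKM. Abca8a was at 145, 167 and 155 CPM in wt/wt libraries, 330.0 and 371 in wt/flox libraries and 313, 392 and 308 in flox/flox libraries, again with no overlap. It rose 2.17-fold in flox/flox and 2.25-fold in wt/flox (edgeR adjusted p = 0.0022 and 0.0101). Abca8b rose 2.17-fold and 2.10-fold. The fifth neighbour, Abca9, was at 3.78 to 5.46 CPM in wt/wt and 6.05 to 6.79 in flox/flox and did not pass (log2 0.57, edgeR adjusted p = 0.105). Abca8a, Abca8b and Abca9 are paralogues too, and reads that they share were likewise not measured.

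Away from that run, Abca2, which handles lysosomal lipid, rose 1.83-fold in flox/flox and 1.75-fold in wt/flox, and the flox/flox call was lost without wt/wt replicate 1 or 2 (edgeR adjusted p = 0.0507 and 0.0608). Abca3, known for surfactant lipid in the lung, rose 2.21-fold in flox/flox (edgeR adjusted p = 0.0456), with 102 to 155 CPM in wt/wt overlapping 133 to 386. That call held in 10 of 21 alternatives and was lost without wt/wt replicate 1 or 2 or flox/flox replicate 2 or 3 (edgeR adjusted p = 0.128, 0.144, 0.132 and 0.0956). Abca4 and Abca14 were at 0.0730 to 0.319 and 0.119 to 1.96 CPM over all libraries and passed no test, and Abca4 had 8 to 42 reads per library.

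**Figure D2:**
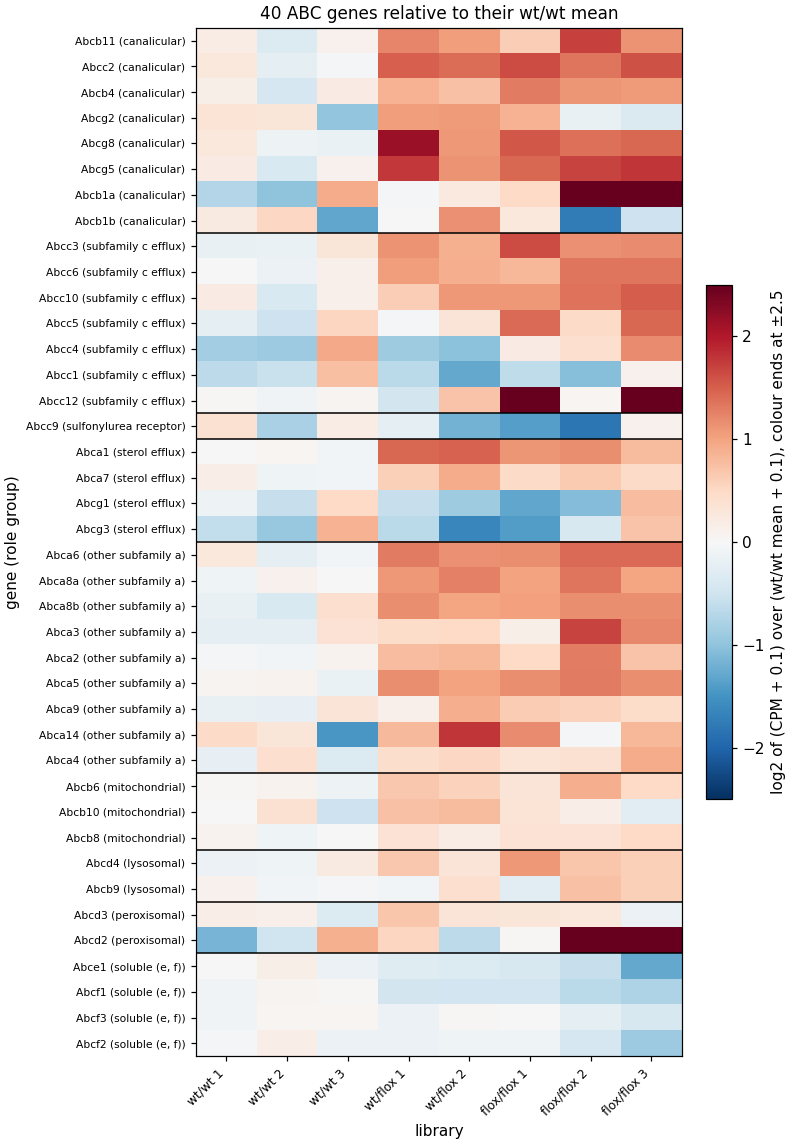
Each of 40 ABC genes (rows, by role) in each of the 8 libraries (columns), as log2 of CPM + 0.1 over the wt/wt mean + 0.1, red above and blue below, with the colour ending at 2.5. The wt/flox and flox/flox columns are red for most membrane members and pale to blue for the soluble members at the bottom, and Abcb1a, Abcc12 and Abcd2 are dark in 2 flox/flox libraries each.

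Among the mitochondrial members, Abcb6, linked to porphyrin transport, rose 1.51-fold in flox/flox and Abcb8 1.33-fold. For Abcb6 the call held in 12 of 21 alternatives, and was lost without any 1 of wt/wt replicates 1, 2 and 3 or flox/flox replicate 2 (edgeR adjusted p = 0.068, 0.0647, 0.0666 and 0.0544) and with the sex read from transcripts as a term (0.0504). For Abcb8 it held in 14 of 21, and was lost without wt/wt replicate 2 or 3 or flox/flox replicate 2 or 3 (edgeR adjusted p = 0.0895, 0.0529, 0.0504 and 0.0554). Abcb10, needed for haem synthesis, was at 29.9 to 55.2 CPM for wt/wt, 70.9 and 73.3 for wt/flox and 35.5 to 53.7 for flox/flox, and passed no test (edgeR adjusted p = 0.0911 in wt/flox). Of the lysosomal pair, Abcd4, for cobalamin, rose 1.76-fold in flox/flox, a call lost without wt/wt replicate 1 or 2 (edgeR adjusted p = 0.0527 and 0.0594). Abcb9, for peptides, had a log2 fold change of 0.44 (edgeR adjusted p = 0.307).

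Of the peroxisomal fatty acyl pumps, Abcd3 was at 427 to 608 CPM in wt/wt and 491 to 671 in flox/flox. It passed no test, although its mean wt/wt RPKM was next to that of Abcb11, the highest. Abcd2, a pump for very long chain acyl chains, is named because of its values. It was at 9.77, 15.6 and 41.0 CPM in the wt/wt mice, 32.2 and 14.1 in the wt/flox mice and 22.5, 162 and 128 in the flox/flox mice, so that, as for Abcb1a, replicates 2 and 3 of flox/flox were high and replicate 1 lay inside the wt/wt range. The fitted log2 fold change was 2.24 (SE 0.79, edgeR adjusted p = 0.066). It passed without flox/flox replicate 1 (log2 2.71, adjusted p = 0.0173) and without wt/wt replicate 3 (log2 3.04, adjusted p = 0.037).

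The high flox/flox libraries of Abcb1a and Abcd2 were those with Xist transcripts, and in wt/wt the highest library of each was replicate 3, the one wt/wt library with Xist. That mouse was also the youngest in wt/wt, at 7 weeks. Its summed Kupffer cell markers were at 269 CPM, against 63.5 and 62.8 in the other wt/wt libraries. In flox/flox replicates 1, 2 and 3 this sum was 53.3, 35.0 and 123 CPM. The part of age and of other cells was not tested. With the sex read from transcripts as a term, the log2 fold change of flox/flox was 1.82 for Abcb1a (edgeR adjusted p = 0.00374) and 1.33 for Abcd2 (adjusted p = 0.0445), both smaller than without the term. In that fit the log2 fold change of wt/flox was 1.13 for Abcb1a, which passed (adjusted p = 0.0268). Over the whole family the term changed the counts little, to 25 higher and 2 lower in flox/flox (14.5% and 14.6% of all genes) and 19 higher and 1 lower in wt/flox (7.58% and 6.9%).

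**Figure D3:**
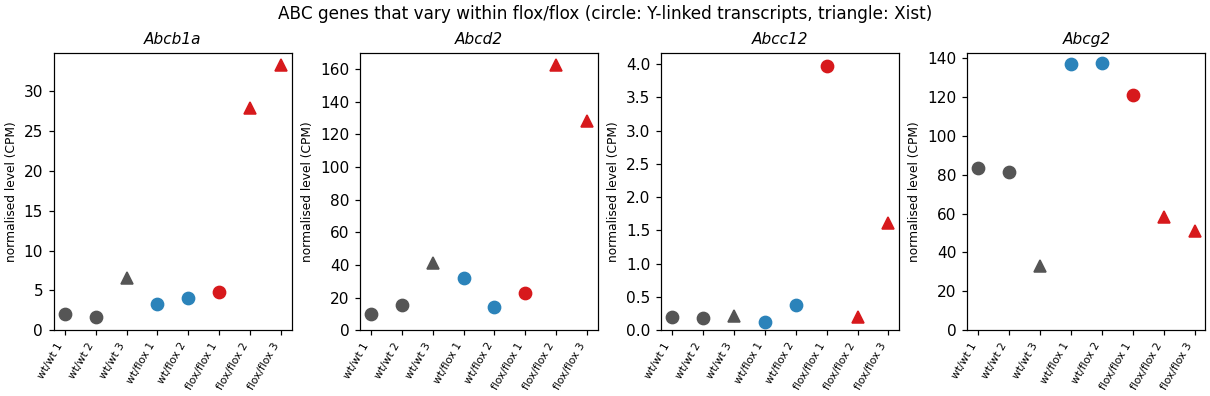
Level in CPM (y axes, from 0) of Abcb1a, Abcd2, Abcc12 and Abcg2 in each library (x axis), circles for libraries with Y-linked transcripts and triangles for those with Xist. Abcb1a and Abcd2 are high in flox/flox replicates 2 and 3, Abcc12 in replicates 1 and 3, and Abcg2 is lowest in the 3 libraries with Xist.

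Of the 4 soluble members, 0 rose, 2 fell in flox/flox and 1 fell in wt/flox. Abce1, which recycles ribosomes, was at 89.8, 99.1 and 80.7 CPM for wt/wt, 73.0 and 70.9 for wt/flox and 68.1, 59.9 and 37.1 for flox/flox. The 3 groups did not overlap, and Abce1 fell 1.63-fold in flox/flox (edgeR adjusted p = 0.0392), a call lost without wt/wt replicate 1, wt/wt replicate 2 or flox/flox replicate 2 (adjusted p = 0.0895, 0.122 and 0.0712). Abcf1, which takes part in translation initiation, was at 39.0, 43.4 and 42.3 CPM in wt/wt libraries, 30.1 and 29.9 in wt/flox libraries and 29.7, 26.1 and 24.2 in flox/flox libraries. Its groups stood apart in the same order, and it fell 1.56-fold in flox/flox (edgeR adjusted p = 0.0053) and 1.38-fold in wt/flox (adjusted p = 0.0463). The wt/flox call of Abcf1 held in 9 of 20 alternatives. It was lost without wt/wt replicate 1, 2 or 3 (edgeR adjusted p = 0.0863, 0.129 and 0.0922). Abcf2 and Abcf3 had log2 fold changes of -0.44 and -0.21 in flox/flox and did not pass (adjusted p = 0.127 and 0.26).

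Between flox/flox and wt/flox, 0 members and 0% of all genes passed the edgeR test, and 7 of 42 members had an unadjusted p under 0.05 against 8.42% of all genes. DESeq2 called 75 genes there (0.516%) and 0 members, and limma-voom 0 genes. The members' median log2 fold change was 0.09 (0.04 over all genes). In 6 members every flox/flox library was above both wt/flox libraries and in 6 below, where 14.2% and 13.1% of all genes did so. These groups share a batch mark. The largest difference among the members was that of Abcc12 (log2 2.95, SE 1.11, adjusted p = 0.558), followed by Abcb1a (log2 2.59, SE 0.90) and Abcd2 (log2 2.17, SE 0.92).

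ABC genes are long: the members' exons summed to 2569 to 15092 bases, with a median of 6330.5, against 4220 over the genes tested, and 37 of 42 members reached 4000 bases. In flox/flox against wt/wt, the 13 members of at least 8000 bases had a median log2 fold change of 0.92, where all genes of that length had 0.32. The 10 members of 6000 to 8000 bases had a median of 0.62 against 0.15, and the 14 of 4000 to 6000 bases 0.80 against 0.04. The 5 members under 4000 bases had a median of -0.12, and all genes of 2000 to 4000 bases -0.17. These 5 were split: Abcg5 and Abcg8 rose (log2 1.65 and 1.46), while Abcf2, Abcf3 and Abcg3 had -0.44, -0.21 and -0.12. The median of all genes was thus higher in longer classes, except that genes under 1000 bases, with no member among them, had 0.25. When a trend with length was taken out of each library, 18 members rose and 2 fell in flox/flox, with a median of 0.61 (11% of all genes higher and 11.6% lower), and 9 rose and 0 fell in wt/flox, with a median of 0.52 (2.72% and 1.73% of all genes). The part of length in each gene's change was not tested further.

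**Figure D4:**
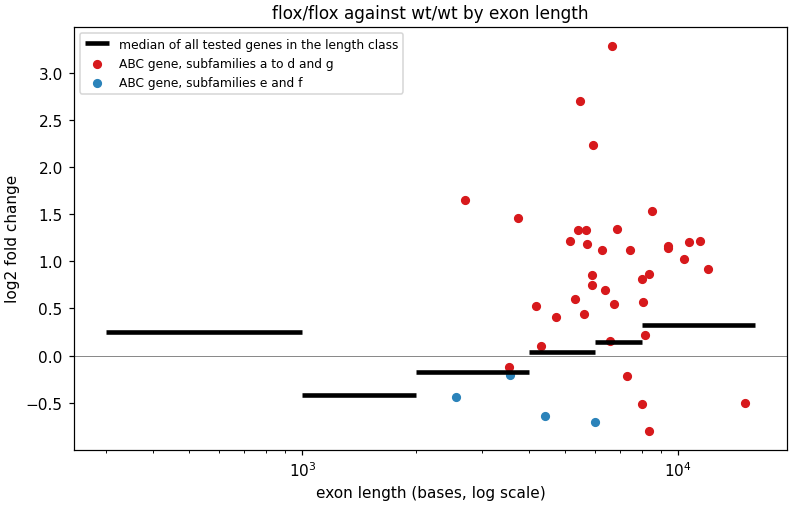
Log2 fold change of flox/flox against wt/wt (y axis) over summed exon length in bases (x axis, log scale) for the 42 ABC genes; black bars are medians of all tested genes in a length class. The bars rise from -0.42 at 1000 to 2000 bases to 0.32 at 8000 bases and more, and most membrane members lie above the bar of their class.

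Genes that work beside the ABC pumps were taken from lists, whose counts stand beside 15.1% of all genes higher and 14.7% lower in flox/flox and 6.58% and 5.89% in wt/flox. Of 15 tested carriers of bile acids, organic ions and metals, 9 rose and 0 fell in flox/flox (5 and 0 in wt/flox), among them Atp7b, the copper pump (2.12-fold), Slco1b2, an uptake carrier (1.67-fold), and Slc22a18 (1.45-fold). Slc10a1, the main bile salt uptake carrier, had a log2 fold change of 0.49 and did not pass (edgeR adjusted p = 0.0717). Of 16 genes for apical anchoring and canalicular traffic, 3 rose and 4 fell in flox/flox (0 and 1 in wt/flox): Vipas39, a partner in apical sorting, rose 1.86-fold, while the scaffolds Slc9a3r2 and Slc9a3r1 fell 1.94-fold and 1.63-fold.

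Of 16 regulators, 1 rose and 2 fell in flox/flox (0 and 2 in wt/flox). Nr1i3, the receptor CAR, was at 42.6 to 68.5 CPM in wt/wt and 71.0 to 116 in flox/flox (1.94-fold, edgeR adjusted p = 0.0257), and Keap1 and Nr1h3 fell 1.40-fold and 1.49-fold. Nr1h4, the gene of FXR, had a log2 fold change of -0.09 (adjusted p = 0.591). Of 13 HDL and sterol genes, 3 rose and 1 fell in flox/flox (1 and 0 in wt/flox), with Npc1, for lysosomal cholesterol, up 2.49-fold, Soat2 up 2.26-fold and Scarb1, the HDL receptor, up 1.49-fold. Of 12 peroxisomal and fatty acid genes, 1 rose and 1 fell (2 and 0 in wt/flox), and of 12 iron-sulphur and haem partners 0 rose and 2 fell (1 and 0 in wt/flox). In flox/flox, where 29.9% of all genes were called in either direction, the sterol list was near that share and the regulators, peroxisomal genes and haem partners were below it. The ABC genes with other symbols, Tap1 and Tap2, passed no test.

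Markers of other cells moved with the groups too, and fewer cells of a type cannot be told apart from less RNA per cell. Of 12 sinusoidal endothelial markers, 8 fell in flox/flox and 7 in wt/flox, and their summed level was 186 to 293 CPM in wt/wt, 90.6 to 101 in wt/flox and 78.6 to 166 in flox/flox. Of 10 hepatocyte markers, 3 rose in each comparison, and their summed level was 95287 to 115318 CPM in wt/wt, 127798 to 149326 in wt/flox and 144470 to 217685 in flox/flox. Most of the hepatocyte sum was Alb, at means of 73322, 92134.5 and 129221 CPM, which did not pass (edgeR adjusted p = 0.053 in flox/flox and 0.468 in wt/flox), and 4 of the 10 markers had a negative log2 fold change in flox/flox. Neither sum overlapped between wt/wt and the other groups, and their part in the members' change was not tested. Of 8 tested cholangiocyte markers, 3 rose and 1 fell in flox/flox, but the defining markers Krt19, Epcam and Krt7 were at most 0.220 CPM or untested. Of the Kupffer cell markers 0 passed, but all 12 had a negative log2 fold change in both comparisons, with a median of -1.07 in flox/flox and -1.90 in wt/flox, and in wt/flox all 12 lay below every wt/wt library. Their summed level was 62.8 to 269 CPM in wt/wt, 35.1 to 36.6 for wt/flox and 35.0 to 123 for flox/flox. The 6 tested T, NK and B cell markers were also all negative with 0 passing (medians -1.002 and -2.41), and the 10 stellate markers had medians of -0.65 and -0.95 with 0 passing. Of 10 monocyte, macrophage and neutrophil markers, 2 fell in flox/flox and 0 passed in wt/flox (medians -1.43 and -1.80). The part of these shifts in the members' change was not tested.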

How the data were processed

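RNA of 8 liver cell libraries was depleted of ribosomal RNA and made into strand-specific libraries, per the labels' protocols. The authors deposited 1 table per library with raw counts of sense and antisense reads per gene. GRCm38, mm10 and DESeq2 are named in the submitters' processing notes, while no source used here names an aligner, a read counter or an annotation. The 5 rows that name no gene were left out of the tests and library sizes. Reads without a feature made up 22.2% to 28.1% of a wt/wt library, against 31.7% to 40.0% in the other groups. Within each genotype group, no pair of libraries was a duplicate, and pairs across groups were not checked for this.

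Sense counts of all 8 libraries were fitted together by genotype with edgeR 4.0.16 in R 4.3.3 (TMM size factors, filterByExpr, quasi-likelihood F test, two-sided). P-values were adjusted by Benjamini-Hochberg over 14728 genes at a threshold of 0.05. The labelled sex was not a term, because transcripts contradicted it in 2 libraries. The code was tested on simulated data. CPM are the counts per TMM-scaled library size. Exon lengths were the union of exons in GENCODE M21, and positions are GRCm38. Alternatives included DESeq2 1.42.0 and limma 3.58.1 (voom), other size factors and filters, sex and replicate terms, a lowess trend on exon length and left-out libraries.

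The 42 members, the lists of related genes and the tests were chosen with earlier results of these data known. Members named with a value in each library were the 8 canalicular genes and up to 8 called members higher and 8 lower by fold in each comparison. Others are given by ranges, and Abcd2, Slc10a1 and Nr1h4 were added after their values were seen. P-values weigh a difference between groups against the spread between mice within groups, which all groups share in the main fit. In both comparisons with wt/wt they do not separate genotype from batch. Results of some genes are not reported here by name, and 40 members are drawn in the plots with gene labels for the whole family.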

Additional observations from a re-analysis of the deposited data

Results flagged for a closer look

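Antisense reads, which the comparisons above did not use, came to 6.87% to 8.44% of the sense reads in genes. For 6 members they exceeded 10% of the member's own sense reads, a limit chosen after the data were seen: Abca9 (37.8%), Abcg8 (19.96%), Abcb1b (15.8%), Abcb9 (11.6%), Abcf1 (10.3%) and Abcc10 (10.1%). In Abcg8 and Abcc10 the antisense reads rose in both comparisons with wt/wt (the same edgeR test on the antisense counts of 12856 genes). Of these genes, 13.1% were higher and 12.9% lower in flox/flox, and 4.88% and 4.15% in wt/flox. Such rises were common in the family: of 38 members tested, 20 were higher and 2 lower in flox/flox, and 11 and 1 in wt/flox. The sense reads of Abcg8 and Abcc10 rose as well, with a log2 fold change of 1.46 and 1.34 in flox/flox.

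Antisense reads of Abcg8 were at 122, 88.8 and 106 CPM of antisense reads in the wt/wt mice, 372 and 212 in the wt/flox mice and 292, 295 and 309 in the flox/flox mice, so that no library overlapped with wt/wt. Their log2 fold change was 1.502 in flox/flox (edgeR adjusted p = 0.00309) and 1.47 in wt/flox (adjusted p = 0.0176). Abcg5 lies on the other strand and its annotated span overlaps that of Abcg8.

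Antisense reads of Abcc10 were at 11.0, 8.94 and 10.3 CPM for wt/wt, 16.3 and 24.5 for wt/flox and 26.1, 28.7 and 31.2 for flox/flox, again without overlap with wt/wt. Their log2 fold change was 1.505 in flox/flox (edgeR adjusted p = 0.00199) and 1.01 in wt/flox (adjusted p = 0.0249). Antisense reads of Abcf1 fell in both comparisons, with a log2 fold change of -0.64 in flox/flox (edgeR adjusted p = 0.00904) and -0.70 in wt/flox (adjusted p = 0.0264). Those of Abca9, Abcb1b and Abcb9 passed neither test, with log2 fold changes in flox/flox of -0.74, 2.74 and 0.70 (edgeR adjusted p = 0.128, 0.0571 and 0.275). The source of these reads was not tested.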

How the results depend on the processing

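Of the 26 members called in flox/flox against wt/wt, 26 had the same sign under every alternative run, and 11 were called under all of them, among them Abca1, Abca5, Abca6, Abca8a, Abcb4, Abcc10, Abcc2, Abcc3, Abcc6 and Abcg5. Of the 17 called in wt/flox, 17 had the same sign throughout and 0 were called under all alternatives. The least kept of these were Abca2 and Abcc10, each called in 6 of 20, then Abcb11 and Abcf1 (9 of 20) and Abcb4 (10 of 20). Leaving out 1 library at a time gave 14 to 26 members and 2195 to 4722 genes called in flox/flox, 0 to 11 members and 0 to 1001 genes in wt/flox, and 0 to 0 genes between flox/flox and wt/flox. Where this left 1 wt/flox library, that library was assumed to vary like the other groups.

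The replicate block with sex by transcripts gave 17 members (17 higher and 0 lower) and 1786 genes in flox/flox, and 0 members and 0 genes in wt/flox. Without the 2 libraries of contradicted sex, 2915 genes were called in flox/flox. In wt/flox, library size alone gave 10 members and 3498 genes, DESeq2 gave 3154 genes, and removing the length trend gave 9 members and 656 genes. Between flox/flox and wt/flox, DESeq2 called 75 genes. The cause of these shifts in the counts was not tested.

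The replicate block alone gave 24 higher and 2 lower members in flox/flox (2291 and 2503 genes) and 12 and 0 in wt/flox. Replicate number marks age. Deviations of libraries from their group mean correlated at 0.0117 to 0.451 for the same number, against -0.482 to 0.344 for other pairs. These values cannot decide whether the numbers pair the mice. The deviations of the 2 wt/flox libraries mirror each other, and sex by transcripts was not kept apart. The main fit had no replicate term. Members with few reads, such as Abcc12, Abcb1b and Abca4, limit what depth can show.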
